A study of Mus musculus with 24 samples.

Results

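The expression of 9 amino acid transporter genes was followed across 8 groups of mouse CD4 T cells. Members were the genes whose Ensembl identifiers map, in the GENCODE annotation of GRCm38, to the symbols Slc7a5, Slc3a2, Slc1a5, Slc7a1, Slc7a6, Slc7a11, Slc1a4, Slc38a1 and Slc38a2. All 9 were found among the 46981 genes of the deposited table, and all 9 passed the filter on low values in both cohorts. The rule for membership was by symbol and set no threshold on measured values.

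The study compared CD4 T cells lacking ATP-citrate lyase (Acly), or the E1 alpha subunit of pyruvate dehydrogenase (Pdha1), with wild-type (WT) cells. The Acly cohort held cells of CD4-Cre Aclyfl/fl mice, here called KO, and WT cells. In the Pdha1 cohort the KO cells came from Pdha1fl/fl CD4CreERT2 mice and had their own WT cells. Each genotype was measured at rest, without treatment, and after 24 h of stimulation through CD3 and CD28, with 3 libraries in each of the 8 groups. The medium was RPMI with 15% serum and 2 mM glutamine. Both Cre drivers use CD4, so deletion was directed at T cells and not at the whole animal. CreERT2 acts only after an inducer, and the labels give no schedule for it. WT is the only genotype label of the controls, so whether they carried floxed alleles or Cre is not stated. Ages are not given, and the labels do not say whether the 3 libraries of a group came from separate animals, so p-values measure only the spread between these libraries.

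Activated T cells grow and divide, and import of amino acids across the plasma membrane feeds protein synthesis, nucleotide synthesis and glutathione. Large neutral amino acids such as leucine enter through a heterodimer of the light chain encoded by Slc7a5 and the heavy chain CD98, encoded by Slc3a2. Leucine and arginine inside the cell are sensed upstream of mTORC1, a kinase complex that promotes growth. Transcription of several of these transporter genes is known to respond to Myc and to Atf4, the transcription factor of the amino acid response.

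Slc7a5 lies on the minus strand at chr8:121881150-121907694 (GRCm38) and shares bases with Gm20388 on the opposite strand, a gene measured at 0 to 19.0 RPM (median 2.75). RPM is the unit of the deposited table, in which each library sums to 1000000. Slc3a2 lies at chr19:8706882-8723369 on the minus strand. Slc1a5 lies at chr7:16781340-16798274 on the plus strand. Slc7a1 spans chr5:148327410-148399904 on the minus strand, and Slc7a6 spans chr8:106168857-106198706 on the plus strand. Slc1a4 was placed at chr11:20302180-20332713 on the minus strand. Slc38a1 and Slc38a2 are neighbours on the minus strand of chromosome 15, at chr15:96571418-96642913 and chr15:96687392-96699730. The annotated span of Slc7a11 is chr3:49892526-50443614 on the minus strand and holds 5 other annotated genes, 4 of them in the table. Among these 4 the antisense gene Gm37854 was the highest, at 1.99 to 23.7 RPM, and reads within shared bases may be counted for either gene.

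RefSeq promoter windows (GRCm38.p6, 250 bases before to 50 bases after a start site) existed for 6 of the 9 members, in 8 windows. Slc7a5, Slc1a5 and Slc38a1 had no entry. Each window was searched on both strands for CACGTG, the E-box that Myc and Max bind, for TGATGNAA, an element bound by Atf4 with C/EBP proteins, and for TGACNNNGC, the core of the antioxidant response element. The windows with the Atf4 element are shown because Atf4 is a known regulator of both genes, Slc7a11 and Slc1a4. Its own transcript also rose with activation, but a part of the element in any change of these genes was not tested. Slc3a2, Slc7a1 and Slc38a2, which rose with activation, had windows without it, and Slc7a11 fell in RPM. Capitals mark the matches, and the sequences run 5′ to 3′ along the gene's strand, from chr3:50443564-50443863 (minus) and chr11:20332664-20332963 (minus).
Slc7a11: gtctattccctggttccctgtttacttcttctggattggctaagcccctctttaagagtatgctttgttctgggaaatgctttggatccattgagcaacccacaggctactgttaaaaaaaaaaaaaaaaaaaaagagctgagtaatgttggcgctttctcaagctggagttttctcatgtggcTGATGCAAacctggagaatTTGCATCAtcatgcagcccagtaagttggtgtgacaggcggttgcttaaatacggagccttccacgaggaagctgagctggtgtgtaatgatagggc
Slc1a4: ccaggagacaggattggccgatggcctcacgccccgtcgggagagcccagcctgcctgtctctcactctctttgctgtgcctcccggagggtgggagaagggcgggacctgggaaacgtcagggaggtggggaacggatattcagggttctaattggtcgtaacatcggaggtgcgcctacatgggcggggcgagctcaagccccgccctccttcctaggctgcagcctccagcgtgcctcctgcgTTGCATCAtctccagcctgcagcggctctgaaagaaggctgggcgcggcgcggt
The Slc7a11 window held 2 matches, TGATGCAA at bases 185 to 192 and, on the other strand, TTGCATCA at bases 204 to 211, counted from the window's 5′ end. The Slc1a4 window held 1 match, TTGCATCA at bases 247 to 254. Of all 32851 promoter windows of this length, 1304 (3.97%) held at least 1 such match and 23 (0.0700%) at least 2. No member window held CACGTG, which was present in 7.15% of all windows. TGACNNNGC was found in the Slc38a2 window, in 1 of the Slc7a1 windows and in both overlapping Slc7a6 windows, against 12.4% of all windows. A match describes letters in the window and is no measurement of binding.

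Recovered counts ranged from 388902 to 1087675 per library, and 1 count was worth 0.677 to 2.28 RPM. A count of 0 allows up to 3 counts, or 2.03 to 6.83 RPM depending on the library, for counting error only. Acly transcripts stood at 104, 111 and 109 RPM in activated WT cells of the Acly cohort and at 11.3, 10.6 and 15.0 RPM in activated KO cells, groups that did not overlap, while at rest (1.06 to 9.87 RPM in both genotypes) they did. Pdha1 transcripts of the Pdha1 cohort stood at 84.7, 40.8 and 5.35 RPM in activated WT and at 30.4, 27.4 and 19.996 RPM in activated KO libraries. These overlapped only through the 5.35 RPM of WT activated 3, a library described below as displaced. All 7 T cell markers had counts in every group, and their sum rose with activation in the Acly cohort, from 258 to 542 RPM at rest to 1152 to 1645 RPM. The sums of 6 B cell, 6 CD8 and NK and 6 myeloid markers were each lower at their highest than the T cell sum of the same group at its lowest, with Cd79b at 0 in activated WT cells of the Acly cohort Ncr1 at 0 in 4 groups, Cd14 at 0 in resting WT, resting KO and activated KO cells of the Acly cohort and Lyz2 at 0 in its resting KO cells, and their part in the results was not tested. Markers of red cells and platelets summed to 16.8 to 811 RPM in the Acly cohort and to 503 to 22675 RPM in the Pdha1 cohort, and their part was not tested either. Between activated WT and KO libraries of the Acly cohort, 2 kinds of sums did not overlap. T cell sums were 1321 to 1645 RPM in WT and 1152 to 1229 RPM in KO libraries. CD8 and NK sums were 15.9 to 33.9 and 40.7 to 50.4 RPM. The sums of the other marker lists overlapped between these genotypes, and the part of cell composition in genotype differences was not tested. Such bulk values cannot tell fewer cells of a type from less RNA per cell.

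The library labelled KO resting 3 of the Pdha1 cohort had the transporter levels of an activated library, and the library labelled WT activated 3 had those of a resting library. For Slc7a5 they read 60.6 and 2.14 RPM, where the other resting libraries of that cohort held 0 to 9.77 RPM and the other activated ones 30.4 to 82.4 RPM. The T cell marker sum, which holds no member, was displaced as well, at 597 and 202 RPM. The other resting libraries had sums of 108 to 252 RPM and the other activated ones 417 to 832 RPM. Because member levels also marked these libraries, activation calls of members without them follow in part from that choice. The comparisons of members in the Pdha1 cohort are therefore given with these libraries as labelled and without them. The gene lists, the order of groups, the likeness to Slc7a5 and the plot of genotypes use all libraries as labelled. The plot of all members by library shows the levels of the members.

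**Figure D1:**
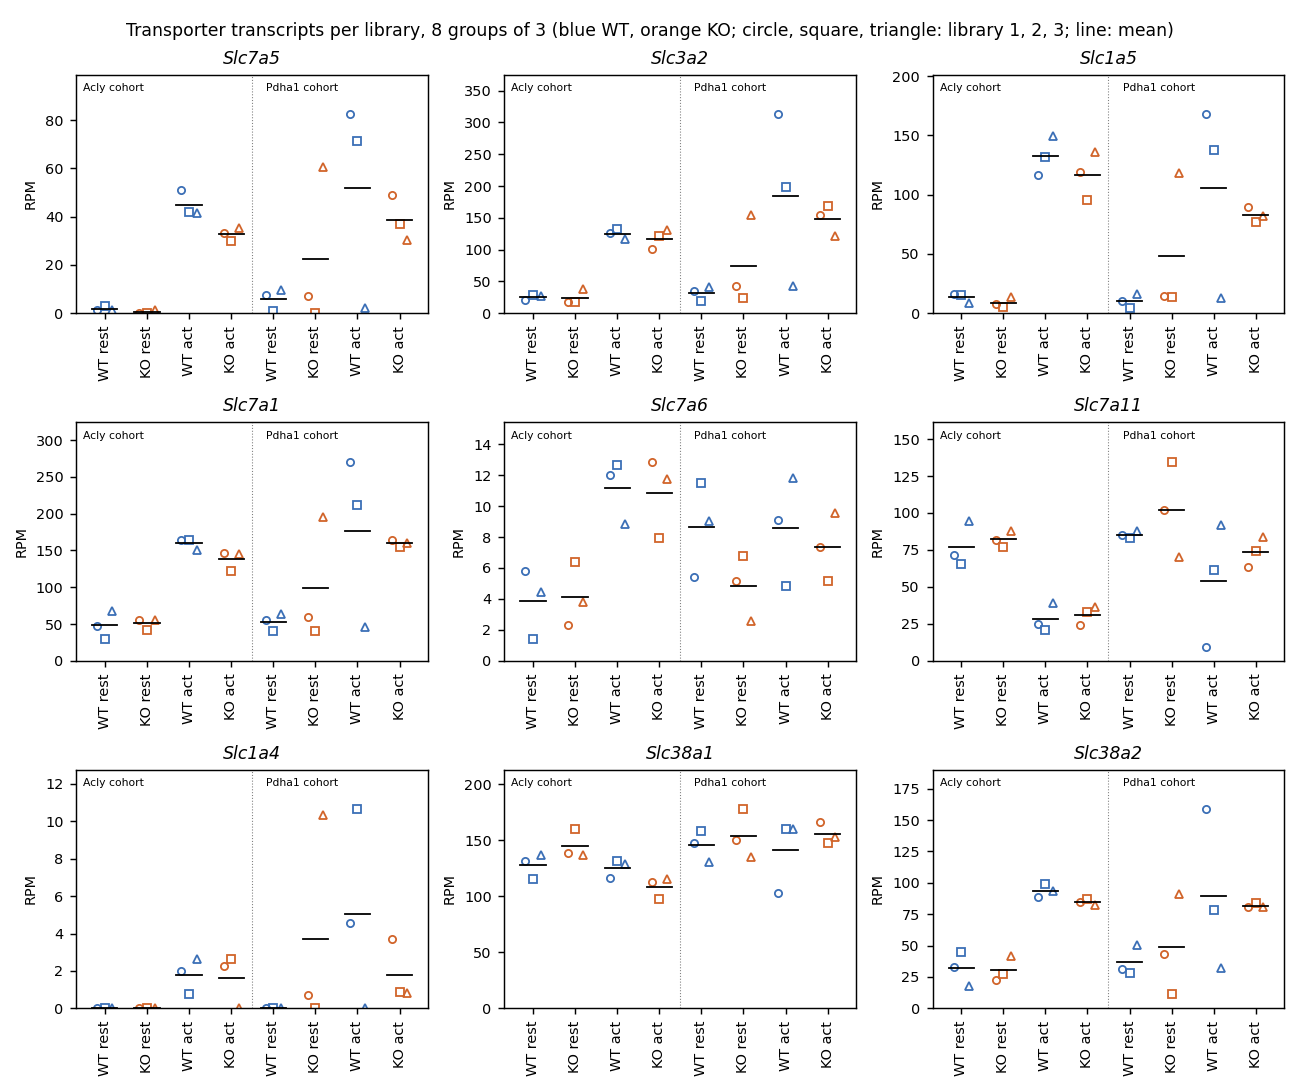
Level of each of the 9 transporter genes in RPM (vertical axis, linear, from 0) in the 24 libraries, by group (horizontal axis). Open symbols are single libraries (circle 1, square 2, triangle 3; blue WT, orange KO) and black lines group means; for Slc3a2, for example, all 6 activated libraries of the Acly cohort lie between 100.5 and 132 RPM and all 6 resting ones between 17.1 and 37.9 RPM, while the triangles of KO rest and WT act are displaced in the Pdha1 cohort.

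Activation of WT cells in the Acly cohort raised 7 of the 9 transporter transcripts and lowered 1, by limma on log2(RPM + 0.5) with Benjamini-Hochberg adjustment over 31311 genes. Among all genes tested, 21.4% were called higher and 23.8% lower. Groups without overlap were found for 7 members in the upward direction (23.1% of all genes) and for 1 downward (28.8%). The median log2 change of the members was 1.79, against -0.61 over all genes. Slc1a4 had no count at rest, and with it set to 0 change the median of the members was 1.64. Scaling in the manner of TMM moved the median of all genes from -0.61 to -0.29 and the share of higher calls from 47.4% to 63.1%, and 7 members rose and 1 fell under it as well.

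Slc7a5, the light chain of the leucine transporter, was close to absent at rest. WT resting libraries held 1.16, 2.82 and 1.49 RPM, 4 counts in all, and WT activated libraries 51.1, 42.1 and 41.6 RPM, 151 counts. Every activated library exceeded every resting one. The change was 4.35 ± 0.53 on the log2(RPM + 0.5) scale (SE, adjusted p = 7.35e-09, limma), higher in 9 of 9 pairs of libraries. Its partner Slc3a2, which escorts several light chains to the membrane, read 20.9, 28.2 and 26.8 RPM at rest and 125, 132 and 116 RPM after activation. Those groups were far apart, with a change of 2.29 ± 0.29 (adjusted p = 1.57e-08, limma).

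Slc1a5 encodes ASCT2, a sodium-dependent exchanger of glutamine and small neutral amino acids. Its level went from 16.3, 15.5 and 8.94 RPM at rest to 116, 132 and 149 RPM in activated WT cells. No resting library came near an activated one, and the change of 3.28 ± 0.32 had an adjusted p of 3.70e-11 (limma). Slc38a2 encodes the sodium-coupled carrier SNAT2, which takes up small neutral amino acids and is induced when these are scarce. It went from 32.6, 45.3 and 17.9 RPM to 88.7, 99.3 and 93.6 RPM, again without overlap, a rise of 1.64 ± 0.30 (adjusted p = 2.01e-05, limma).

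Slc38a1, the related carrier SNAT1, did not move with its neighbour on chromosome 15. Its resting WT libraries held 132, 115 and 137 RPM and its activated ones 116, 132 and 129 RPM, ranges that overlap. The change was -0.02 ± 0.23 (95% interval -0.48 to 0.43, adjusted p = 0.942, limma). Its sign depended on the scaling, at 0.44 under TMM-style scaling and -0.84, then past the threshold (adjusted p = 0.00219, limma), under quantile normalization.

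Slc7a1 encodes CAT1, an importer of arginine and lysine. Levels of 47.8, 29.7 and 67.3 RPM at rest became 164, 164 and 151 RPM, higher in every activated library (1.79 ± 0.27, adjusted p = 5.07e-07, limma). Slc7a6, the light chain y+LAT2 that exchanges cationic for neutral amino acids and pairs with Slc3a2, was scarce throughout. It read 5.80, 1.41 and 4.47 RPM at rest and 11.98, 12.6 and 8.81 RPM after activation. The resting mean of 3.89 RPM was under the mean floor of 4.06 RPM (3 counts per library), so the size of the rise depends on the pseudocount. The activated libraries were all higher, though close to the resting ones, and the rise of 1.56 ± 0.54 (adjusted p = 0.0170, limma) was lost without WT resting 2, WT activated 1 or WT activated 2 (adjusted p = 0.108, 0.0541 and 0.0631).

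Slc1a4 encodes ASCT1, an exchanger of serine, alanine and other small neutral amino acids. No count fell on it in any resting library of the Acly cohort, and activated WT libraries read 1.99, 0.789 and 2.64 RPM, 6 counts in all. The difference passed the test (adjusted p = 0.0254, limma) but both groups were under the floor of 3 counts per library, so no fold is given. It was lost without WT resting 3, WT activated 1 or WT activated 3 (adjusted p = 0.0516, 0.0714 and 0.0877).

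Slc7a11, the light chain xCT that imports cystine in exchange for glutamate, was the only member that fell in this comparison. Resting WT libraries held 71.3, 65.2 and 94.5 RPM and activated ones 25.0, 20.6 and 38.9 RPM, with no overlap. The fall was -1.47 ± 0.29 (adjusted p = 6.25e-05, limma), and it ranged from -2.00 to -0.92 over the alternatives, called under all 23 of them. A value that moved with it, the level of receptor genes per kilobase, is given further on.

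In Acly KO cells activation raised 6 of the 9 transporter transcripts and lowered 1, beside 20.7% and 26.7% of all genes. In 6 members every activated KO library exceeded every resting one (22.6% of all genes), and in 2 every one was lower (33.2%). The member median was 1.49 (1.44 with Slc1a4, again without a count at rest, set to 0 change), against -0.67 over all genes. Slc7a5 went from 0, 0 and 1.26 RPM to 33.4, 30.1 and 35.4 RPM. With 1 count at rest and 111 after activation, the ratio of its counts per total counts was 85.3, with an exact 95% interval of 15.0 to 3399 for counting error. The test gave an adjusted p of 2.65e-11 (limma).

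Slc3a2 rose in KO cells from 18.3, 17.1 and 37.9 RPM to 100.5, 122 and 130 RPM (2.33 ± 0.29, adjusted p = 1.0e-08, limma). Slc1a5 went from 8.0, 5.32 and 13.9 RPM to 119, 95.5 and 136 RPM (3.70 ± 0.32, adjusted p = 1.26e-12, limma). Both sets of libraries were fully separated. Slc7a1 rose from 55.1, 41.7 and 55.7 RPM to 146, 122 and 146 RPM (1.44 ± 0.27), and Slc38a2 from 22.9, 27.7 and 41.7 RPM to 84.9, 87.4 and 82.0 RPM (1.49 ± 0.30). Their lowest activated library was above their highest resting library in each case.

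Slc7a6 was called higher in KO cells, from 2.28, 6.39 and 3.78 RPM to 12.9, 7.94 and 11.8 RPM (1.36 ± 0.54, adjusted p = 0.0355, limma). That call was lost without KO resting 1, KO resting 3, KO activated 1 or KO activated 3 (adjusted p = 0.144, 0.0666, 0.117 and 0.0864). Slc7a11 fell from 81.8, 77.3 and 87.7 RPM to 24.2, 32.8 and 36.5 RPM (-1.40 ± 0.29, adjusted p = 0.000112, limma), groups that stood well apart. Slc1a4, at 2.27, 2.64 and 0 RPM after activation, did not pass the test (adjusted p = 0.0679, limma). Slc38a1 held 139, 160 and 137 RPM at rest and 113, 97.4 and 116 RPM after activation. All 9 pairs were lower, but the change of -0.42 ± 0.23 missed the threshold (adjusted p = 0.123, limma), was 0.10 under TMM-style scaling and was called at -1.13 (adjusted p = 7.78e-05, limma) under quantile normalization.

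Summed over the 9 members, the level had group medians of 327 RPM in WT resting, 336 RPM in KO resting, 731 RPM in WT activated and 637 RPM in KO activated libraries of the Acly cohort.

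**Figure D2:**
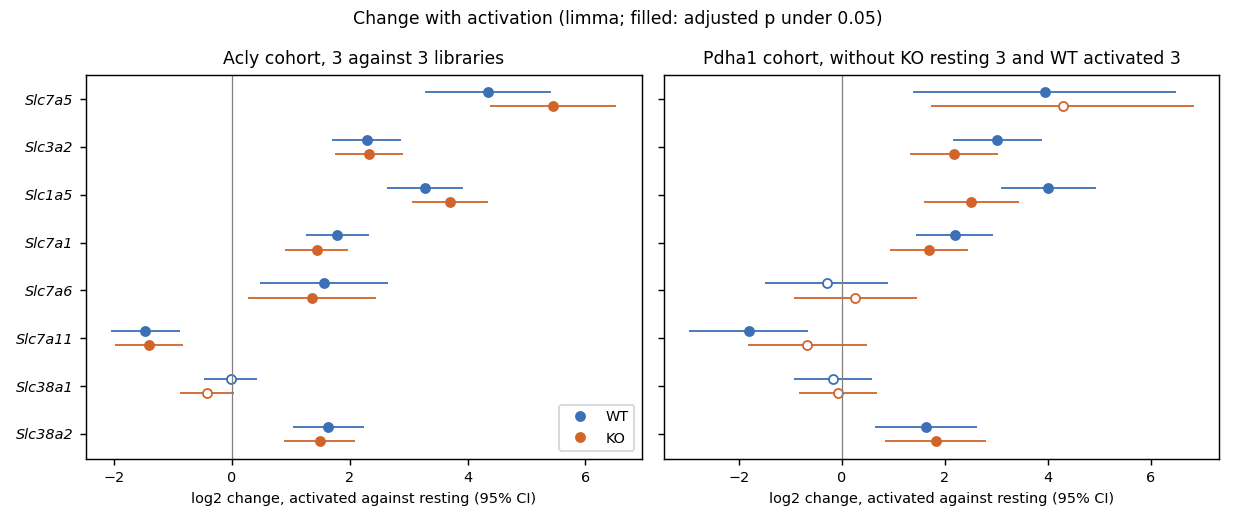
Change of 8 transporters with activation on the log2(RPM + 0.5) scale (horizontal axis) with 95% confidence intervals from limma, WT blue and KO orange, filled where the adjusted p was under 0.05; Slc1a4, with few counts, is not drawn. In the Acly cohort (left) Slc7a5 and Slc1a5 show the highest values and Slc7a11 lies below 0 in both genotypes; the right panel gives the Pdha1 cohort without the libraries labelled KO resting 3 and WT activated 3.

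Between genotypes, no transporter was called in activated cells of the Acly cohort: 0 of 9 members, and 0.00639% of all genes (2 genes, both lower in KO, with 1087 at an unadjusted p under 0.05). The fit estimates 1 spread per gene from all 4 groups of the cohort, resting ones included. By edgeR on recovered counts and by DESeq2 no member was called either, and 16 and 4 genes overall. Of the 9 members, 8 had a negative estimate, with a median of -0.19 against -0.05 over all genes. Slc7a5 is the member with the most negative estimate, at 33.4, 30.1 and 35.4 RPM in KO against 51.1, 42.1 and 41.6 RPM in WT libraries. Its standard error draws also on the resting libraries, which held 0 to 2 counts each. The KO libraries all lay below the WT libraries, yet the change of -0.44 ± 0.53 had a 95% interval of -1.51 to 0.63 (adjusted p = 1, limma).

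Without overlap between genotypes were also Slc7a1 (-0.22 ± 0.27), Slc38a1 (-0.21 ± 0.23) and Slc38a2 (-0.15 ± 0.30), lower in KO in 9 of 9 pairs, so that 4 of 9 members had separate, lower KO libraries, where 7.38% of all genes did, and none had higher ones, where 3.56% did. The T cell and the CD8 and NK marker sums also separated these genotypes, as given above, and their part was not tested. Under TMM-style scaling the member median was -0.09. The estimate for Slc3a2 was -0.09 ± 0.29, with an interval of -0.67 to 0.49. For Slc1a5 it was -0.19 ± 0.32, with an interval of -0.84 to 0.46. Differences within such intervals were not detectable with 3 libraries a group.

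In resting cells of the Acly cohort 0 of 9 members and 0% of all genes were called (1745 genes at an unadjusted p under 0.05 by limma, 1 gene called by edgeR and 0 by DESeq2). No member's genotypes were without overlap at rest, in either direction (3.33% of all genes higher and 3.74% lower in KO). Slc7a5, with 1 count in KO and 4 counts in WT libraries, was under the floor in both genotypes. Its unadjusted p was 0.00574 and its adjusted p 0.603 (limma). Slc1a5 was the next lowest, at 8.0, 5.32 and 13.9 RPM in KO and 16.3, 15.5 and 8.94 RPM in WT libraries, which overlapped (-0.61 ± 0.32, adjusted p = 0.917, limma). The other 6 members with counts had estimates from -0.14 to 0.18. The interaction of genotype and activation called 0 of 9 members and 0% of all genes (1313 at an unadjusted p under 0.05 by limma, 6 called by edgeR). Estimates ran from -0.41 (Slc1a4) to 1.11 (Slc7a5), but both genes were under the floor at rest, so these 2 values depend on the pseudocount. The value for Slc7a6 (-0.20) does so in part, since its WT resting mean was under the floor. Among the other members the estimates ran from -0.39 (Slc38a1) to 0.42 (Slc1a5).

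**Figure D3:**
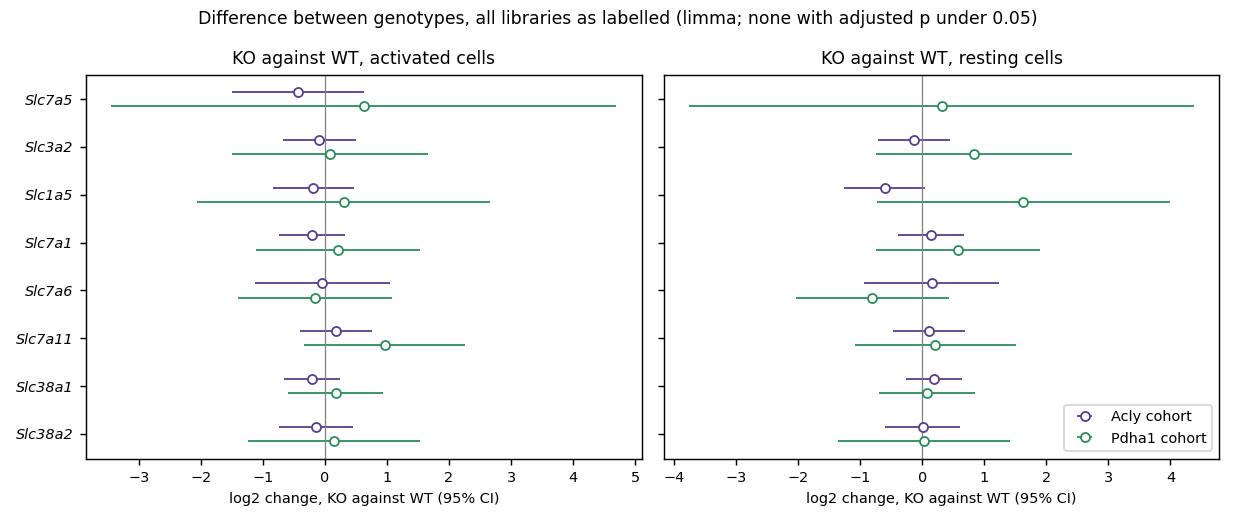
Difference between KO and WT cells on the log2(RPM + 0.5) scale (horizontal axis) with 95% intervals from limma, activated cells left and resting cells right, Acly cohort purple and Pdha1 cohort green, all libraries as labelled. No point passed the threshold, intervals are wider in the Pdha1 cohort than in the Acly cohort, and Slc1a4 in both cohorts and Slc7a5 in resting Acly cells are not drawn because few of their libraries had more than 3 counts.

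In the Pdha1 cohort with all libraries as labelled, none of the 9 transporters was called in any of the 5 comparisons, and 0% of the 30357 genes tested (unadjusted p under 0.05 for 4315 genes in WT activation, 873 in KO activation, 856 and 636 between genotypes in activated and resting cells, and 701 for the interaction). DESeq2 on recovered counts called 1922, 1, 4, 1 and 4 genes in these comparisons, and edgeR 0 in each. Members called by DESeq2 were Slc3a2 and Slc1a5 in WT activation (adjusted p = 0.0207 and 0.0194), and none elsewhere. For Slc3a2 WT resting libraries held 35.4, 18.8 and 41.5 RPM and WT activated ones 313, 199 and 43.0 RPM. Each activated library was higher, and that labelled WT activated 3 by a small margin (2.18 ± 0.73, adjusted p = 0.348, limma). It was the only member whose WT activated libraries all exceeded the resting ones, as 5.87% of all genes did. Slc1a5 stood at 10.2, 4.18 and 16.6 RPM at rest and at 168, 138 and 12.9 RPM after activation, the library labelled WT activated 3 falling among the resting ones.

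Slc7a1 and Slc38a2 showed the same 2 libraries out of place. Slc7a1 stood at 56.1, 39.9 and 63.7 RPM in WT and 59.1, 40.6 and 195 RPM in KO cells at rest, and at 270.3, 212 and 46.3 RPM in WT and 164, 154 and 160.2 RPM in KO cells after activation. For Slc38a2, in that order, these were 31.3, 28.3 and 50.7 RPM, 43.5, 11.8 and 91.4 RPM, 158, 78.0 and 32.2 RPM, and 80.8, 83.8 and 80.7 RPM. In both genes the third resting KO library reached activated levels and the third activated WT library resting levels. Slc1a4 had 12 counts in the library labelled KO resting 3 (10.3 RPM), 11 in WT activated 2 (10.6 RPM), 5 in KO activated 1 (3.69 RPM) and 2 in WT activated 1 (4.56 RPM, under that library's floor of 6.83 RPM). The other 8 libraries had 0 or 1 count. Slc38a1 ran from 103 to 178 RPM over the 12 libraries and Slc7a6 from 2.58 to 11.8 RPM, with overlap between all 4 groups. Slc7a11 was lowest in WT activated 1 (9.11 RPM), where the receptor genes described further on were also lowest, and ran from 61.3 to 134.6 RPM in the other 11.

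Without the libraries labelled KO resting 3 and WT activated 3, activation of WT cells raised 6 of 9 members and lowered 1, beside 14.9% and 12.1% of all genes. These libraries were marked by member levels among other values, so the calls are no independent evidence of the rise. Slc7a5 changed by 3.94 ± 1.13 (adjusted p = 0.0335), Slc3a2 by 3.02 ± 0.41 (adjusted p = 4.39e-05) and Slc1a5 by 4.01 ± 0.44 (adjusted p = 6.08e-06, limma throughout). Slc7a1 and Slc38a2 rose by 2.19 ± 0.36 and 1.63 ± 0.47. Slc1a4 had no count in WT resting libraries and 13 counts in the activated ones. Their mean of 7.59 RPM was at least 3.07-fold higher than the mean resting floor of 2.47 RPM (3 counts per library), though 11 of the 13 counts came from WT activated 2. Slc7a11 fell by 1.82 ± 0.55, from 85.3, 83.3 and 87.5 RPM to 9.11 and 61.3 RPM, values far apart within the activated group. Without WT activated 1 as well, which leaves a lone activated WT library that is assumed to vary like the other groups, 3 of 8 tested members rose and none fell, beside 7.34% and 1.34% of all genes, and Slc7a11 changed by -0.47 ± 0.31 (adjusted p = 0.386) and Slc7a5 by 3.84 ± 1.77 (adjusted p = 0.286, limma).

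Activation of Pdha1 KO cells, again without these 2 libraries, raised 4 of 9 members and lowered none, where 7.15% of all genes were called in either direction (10.4% without WT activated 1 as well, with 4 of 8 members). Slc1a5 went from 14.7 and 13.5 RPM to 89.9, 76.8 and 82.4 RPM (2.52 ± 0.44, adjusted p = 0.00145, limma). Slc3a2 went from 43.5 and 23.7 RPM to 155, 168 and 122 RPM (2.18 ± 0.41, adjusted p = 0.00237, limma). Neither set overlapped. Slc7a1 and Slc38a2 rose by 1.69 ± 0.36 and 1.82 ± 0.47. The estimate for Slc7a5, from 7.33 and 0 RPM to 49.1, 36.9 and 30.4 RPM, was 4.29 ± 1.13 and missed the threshold (adjusted p = 0.0578, limma).

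Between Pdha1 KO and WT cells after activation, the estimates for Slc7a5, Slc3a2, Slc1a5 and Slc7a1 turned with these libraries. As labelled they were 0.62, 0.08, 0.30 and 0.20, and without the 2 libraries -0.998, -0.76, -0.87 and -0.59, where the median of all genes was 0.35. No member was called either way, beside 0% of all genes as labelled, 0.00689% without the 2 and 0% without WT activated 1 as well. Slc7a11 gave 0.96 ± 0.61 as labelled and 1.60 ± 0.55 without the 2 (adjusted p = 0.232, limma), and 0.26 ± 0.31 when WT activated 1 was left out too. In resting cells the estimate for Slc1a5 was 1.63 ± 1.06 as labelled and 0.62 ± 0.44 without the 2 displaced libraries, and no member was called in either fit, beside 0.00344% of all genes without the 2 libraries and 0.0175% without WT activated 1 as well. The interaction called no member in any of these fits, beside 0.00689% of all genes without the 2.

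Ordered by group mean over the 8 groups as labelled, 4 activated groups came first for Slc7a5, Slc3a2, Slc1a5, Slc7a1 and Slc38a2, and the last place was held by resting cells of the Acly cohort. Slc7a5 ran from 51.9 ± 43.4 RPM (SD, n = 3) in activated WT cells of the Pdha1 cohort through 44.9 ± 5.38 in those of the Acly cohort to 0.420 ± 0.728 in resting Acly KO cells. Each pair of neighbours in that order had overlapping libraries. Slc7a1 showed a gap between activated Pdha1 KO cells (159 ± 4.66 RPM) and activated Acly KO cells (138 ± 13.8 RPM), and Slc38a1 between activated WT (126 ± 8.38 RPM) and activated KO cells (109 ± 9.96 RPM) of the Acly cohort; no other neighbours were apart for any member. For Slc7a11 the order began with the 4 resting groups, from 102 ± 32.2 RPM in Pdha1 KO cells, and ended with activated Acly WT cells at 28.2 ± 9.58 RPM. Slc38a1 was the member with the least change over groups, between 109 and 156 RPM. Cohorts differ in more than genotype and are set side by side here without a test.

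Genes can be compared in level only per length, and the labels do not say which part of a transcript was read, so the values per exonic kilobase (kb) assume reads over the whole transcript. Beside each member stands the mean level of 1893 olfactory and vomeronasal receptor genes, families known from sensory neurons of the nose. These stood at 16.1 to 18.5 RPM per kb in resting and 5.08 to 6.92 RPM per kb in activated libraries of the Acly cohort, and at 4.46 to 17.8 RPM per kb in the activated Pdha1 libraries. Slc7a11 stayed at 0.147 to 0.527 times the receptor level per kb in all 24 libraries, while its RPM ran from 9.11 to 134.6. In the Acly cohort its median ratio was 0.295 in WT resting, 0.315 in WT activated, 0.328 in KO resting and 0.379 in KO activated cells. The fall of Slc7a11 in RPM was thus accompanied by a fall of the receptor genes that left their ratio overlapping between rest and activation in WT cells, and the part of the receptor level in it was not tested.

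Other members rose against the receptor genes. Because the receptor level itself fell with activation, a gene unchanged in RPM also rises by this ratio. How many of all genes do so was not computed. Slc3a2 had median ratios of 0.424 in resting and 6.24 in activated WT cells of the Acly cohort, and up to 19.9 in the library WT activated 1 of the Pdha1 cohort. Slc1a5 went from 0.224 to 5.25, Slc7a1 from 0.239 to 2.49, Slc7a5 from 0.0224 to 2.23 and Slc38a2 from 0.212 to 1.76, all medians of 3 libraries. Slc38a1, level in RPM, went from 0.440 (0.415 to 0.443) to 1.18 (1.10 to 1.51), without overlap. After activation the medians of Slc7a6 (0.460) and Slc1a4 (0.0891) stayed below the receptor level per kb.

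**Figure D4:**
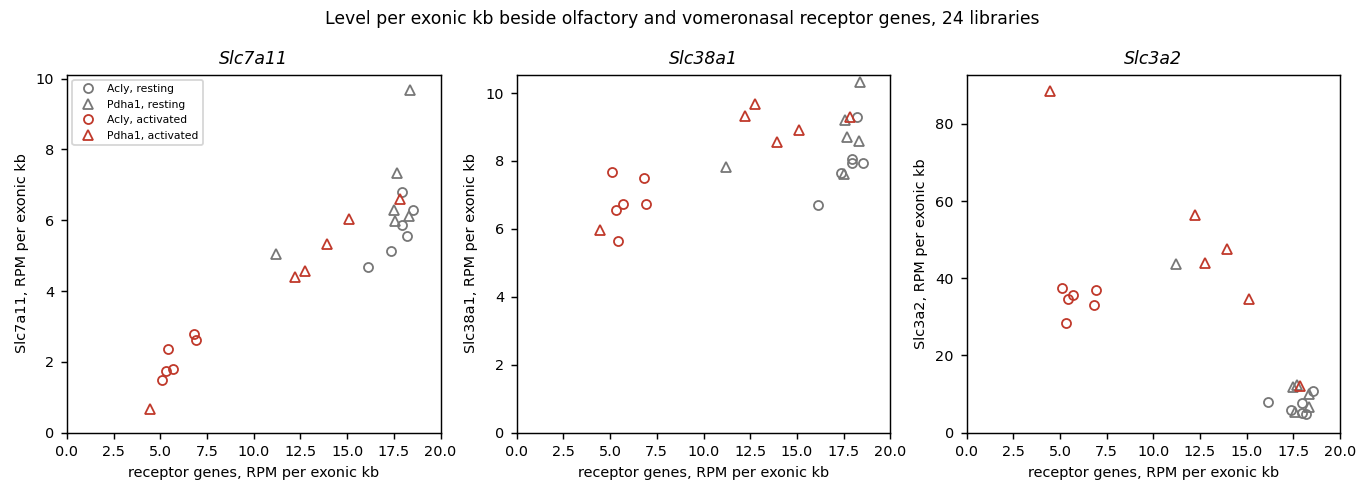
Level per exonic kb of Slc7a11, Slc38a1 and Slc3a2 (vertical axes, RPM per kb) against the mean of the receptor genes in the same library (horizontal axis, RPM per kb), resting libraries grey, activated red, Acly cohort circles and Pdha1 cohort triangles. Slc7a11 rises along with the receptor level, Slc38a1 varies little, and Slc3a2 is at 28.5 RPM per kb or more in all activated libraries but the one labelled WT activated 3 of the Pdha1 cohort, at low and intermediate receptor levels; points in one library share its depth and composition.

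Most other amino acid carriers of the plasma membrane did not share the rise in RPM. Of 21 tested, 2 rose and 10 fell with activation of WT cells in the Acly cohort (1 and 11 in KO cells), where 21.4% of all genes rose and 23.8% fell in WT cells and 20.7% and 26.7% in KO cells, with medians of -1.13 and -1.25 against -0.61 and -0.67 over all genes. The aromatic amino acid carrier Slc16a10 fell from 153 ± 40.6 to 55.9 ± 7.83 RPM (SD, n = 3; -1.42 ± 0.26, adjusted p = 2.50e-05, limma), while its ratio to the receptor genes was 1.19 at rest and 1.28 after activation. The glutamate carrier Slc1a3 fell from 33.5 ± 10.9 to 6.81 ± 2.58 RPM (-2.22 ± 0.43), and the arginine carrier Slc7a2 from 72.0 ± 30.2 to 22.5 ± 7.35 RPM (-1.64 ± 0.33). Against the receptor genes the median of Slc1a3 was 0.243 at rest and 0.123 after activation, and that of Slc7a2 0.368 and 0.455, both with overlapping libraries. The receptor level itself fell (16.1 to 18.5 RPM per kb at rest, 5.08 to 6.92 after activation), so a gene unchanged in RPM rises by this ratio. The share of all genes without overlap by it was not computed. Named after their values were seen, Slc6a6 (0.246 to 1.65), Slc6a20a (0.448 to 1.27) and Slc1a1 (0.242 to 0.446) were higher by it without overlap in activated WT cells. So were Slc43a1 (0 to 0.226) and Slc7a3 (0.0231 to 0.0924), but Slc7a3 rested on few counts in both states and is not read as a rise. Slc7a10 (0.166 to 0) and Slc6a15 (0.102 to 0.0601) were lower without overlap, and the other carriers of the list overlapped. The branched-chain carrier Slc43a1 had no count at rest and 7.43 ± 3.00 RPM after activation, at least 1.83-fold above the floor of 3 counts per library, and the taurine carrier Slc6a6, named after its value was seen, rose by 0.95 ± 0.28. Slc43a1 was the only gene of the list called higher in KO cells. Of 9 lysosomal carriers tested, 1 rose in WT cells, the glutamine exporter Slc38a7 (1.93 ± 0.78, adjusted p = 0.0396, limma), and none fell (median -0.67). In KO cells none rose and Slc36a1, a proton-coupled exporter of small amino acids named after its value was seen, fell (-1.14 ± 0.45, adjusted p = 0.0333, limma).

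Genes of amino acid sensing and regulators of transporter genes moved in both directions. Among 29 tested genes of amino acid sensing to mTORC1, 13 rose and 4 fell in WT cells, and 14 and 4 in KO cells, with medians of 1.02 and 0.61 against -0.61 and -0.67 over all genes. Of all genes, 21.4% rose and 23.8% fell in WT cells and 20.7% and 26.7% in KO cells. Chosen after their values were seen, the genes that fell were Rragd, Sesn3, Depdc5 and Wdr59 in WT cells and Rragd, Sesn3, Fnip2 and Wdr59 in KO cells. Sec13, a subunit of the GATOR2 complex and of the COPII coat, rose from 5.88 ± 1.21 to 104 ± 15.3 RPM (SD, n = 3; 4.04 ± 0.35). Lamtor1, the anchor of Ragulator on the lysosome, rose from 23.6 ± 7.90 to 170 ± 42.8 RPM (2.83 ± 0.29), the GTPase Rraga by 2.65 ± 0.33 and the GATOR2 subunit Seh1l by 2.53 ± 0.32. Among 16 regulators of transporter genes, 6 rose and 3 fell in both genotypes, with medians of 0.91 and 0.50, beside the same shares of all genes. The 3 that fell, Eif2ak2, Nupr1 and Bach1, were named after their values were seen. Atf4 rose from 17.3 ± 7.46 to 204 ± 31.8 RPM (3.61 ± 0.30), Myc from 2.13 ± 1.17 to 51.0 ± 4.12 RPM (4.38 ± 0.42), the Myc partner Max by 3.37 ± 0.28 and the kinase Eif2ak1, which phosphorylates eIF2 alpha, by 2.20 ± 0.28.

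Slc7a11 supplies cystine for glutathione, and genes of glutathione and thioredoxin rose while it fell in RPM. The ratio of Slc7a11 to the receptor genes overlapped between the states (medians 0.295 at rest and 0.315 after activation in WT cells). Of the 11 genes tested, 8 were called higher in WT cells and 9 in KO cells, with medians of 2.28 and 2.12, and none lower. Among all genes 21.4% and 20.7% were called higher and 23.8% and 26.7% lower. Thioredoxin (Txn1) rose from 20.5 ± 7.45 to 430 ± 43.9 RPM (SD, n = 3; 4.42 ± 0.29), peroxiredoxin Prdx1 by 3.27 ± 0.24, glutathione peroxidase Gpx1 by 4.84 ± 0.35 and thioredoxin reductase Txnrd1 by 3.22 ± 0.33. None of the genes in these 5 lists was called between Acly KO and WT cells, in the interaction, or in any comparison of the Pdha1 cohort with all libraries as labelled. In that cohort as labelled 0% of all genes were called, and the lists are not given without the displaced libraries.

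The genes with the pattern most like Slc7a5 over the 8 group means, by the mean absolute difference of centred log2 values among 11612 genes with a mean of at least 10 RPM, were Bst2 (0.15), Bcl2a1a (0.35), Ly6a (0.37), Egr2 (0.41) and Nfkb2 (0.41). Bst2, a membrane protein induced by interferon, had group means of 0.709 RPM in resting and 34.3 RPM in activated Acly KO cells, beside 0.420 and 33.0 RPM for Slc7a5. Bcl2a1a belongs to a family of near-identical copies, so its reads may be split between them. Of the other members, Slc1a5 held rank 98, Slc3a2 rank 446, Slc7a1 rank 2012, Slc38a2 rank 2298, Slc38a1 rank 5356 and Slc7a11 rank 9768, and Slc7a6 and Slc1a4 were under the minimum level. The group means include the displaced libraries of the Pdha1 cohort.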

How the data were processed

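RNA was sequenced from 24 libraries of CD4 T cells, each read from a single end over 75 bp after depletion of ribosomal and globin RNA in a stranded total RNA protocol, per the labels. The authors deposited a single table of RPM values, which sum to 1000000 per library. Builds were GRCm38 and mm10, per the submitters' processing notes. Which aligner, counter and annotation produced the values is not given in the sources used here. Undoing the correction that 6-base molecular identifiers (4096 possible) receive for collisions turned the values into whole counts within 0.01, although the labelled protocol names no identifiers. GENCODE M21 named 46206 of 46981 genes.

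Each cohort's 12 libraries were fitted with limma 3.58.1 (R 4.3.3, mean-variance trend, robust) on log2(RPM + 0.5), keeping genes that reached 1 RPM in 3 or more of them. The pseudocount understates changes of low genes. P-values were adjusted by Benjamini-Hochberg over all genes, with a threshold of 0.05. Values after ± are standard errors of log2 changes or, where said, SDs. The script was tested on simulated data. Tried in turn were a pseudocount of 0.1 or 1, a filter at 5 RPM or none, TMM-style and quantile scaling, a replicate block, limma without trend and robust, only the groups compared, each library left out, the displaced Pdha1 libraries left out, and edgeR 4.0.16 and DESeq2 1.42.0 on recovered counts.

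The members, the gene lists and the tests were chosen with earlier results of these data known. Named from the lists were genes called between genotypes and the 4 with the smallest p per list in WT activation of the Acly cohort; likeness to Slc7a5 used 8 group means. Promoter windows came from RefSeq (GRCm38.p6).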

Additional observations from a re-analysis of the deposited data

How the results depend on the processing

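Over 2118 refits of single members, none reversed a called direction, 10 lost a call, 31 gained one and all others kept their side of the threshold; 145 uncalled estimates turned sign, 30 of them by more than 1 standard error. The number of members called in WT activation of the Pdha1 cohort was 0 as labelled, 2 by DESeq2, 0 to 5 when single libraries were left out (5 without WT activated 3), 7 without the 2 displaced libraries and 3 without WT activated 1 as well. For KO activation it was 0 as labelled and 4 in both fits with libraries left out. The cause was not tested. Deviations of same-numbered libraries had a lowest correlation per pair of groups of 0.00857 to 0.0334 in the Acly cohort. All were positive there, and the highest was 0.134. In the Pdha1 cohort, displaced libraries included, it ran from -0.65 to 0.04. Between resting and activated Acly KO cells each library correlated best with its own number. In the other pairs of Acly groups 4 or 5 of 6 best matches had the same number. The labels do not say whether same-numbered libraries share an animal, the correlations were small, and a pairing was not tested. A fit with the replicate block gave 8 and 7 members called in WT and KO activation of the Acly cohort and changed no call of a member; genes called overall were 14872 and 15477, against 14147 and 14846, and 5 against 2 between activated genotypes. Without the block, the count between activated Acly genotypes ran from 0 to 39 over the alternatives and at rest from 0 to 119 (119 without WT resting 3, 86 without trend). KO activation of the Acly cohort gave 9881 genes by DESeq2. DESeq2 gave no adjusted p for Slc1a4 in the Acly cohort. Slc1a4 in KO activation passed under quantile scaling, without trend, by edgeR and without KO activated 3 (adjusted p = 0.0481, 0.0401, 0.0238 and 0.0137). Slc7a6, Slc1a4 and resting Slc7a5 are limited by depth.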
